A study of Mus musculus with 8 samples.

Results

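Muscle cells mark proteins for destruction by attaching ubiquitin, and a small set of ligases found mainly in striated muscle chooses many of the targets. The 9 genes described here are 3 F-box ligase genes (Fbxo32, Fbxo30 and Fbxo40), 3 RING-type ligase genes of the MuRF group (Trim63, Trim55 and Trim54) and 3 genes of ubiquitin C-terminal hydrolases, which cut ubiquitin off again (Uchl1, Uchl3 and Uchl5). They were taken by gene symbol from a table of 55385 genes, each symbol matched 1 row, and all 9 passed the filter on low counts that left 15314 genes for testing. The libraries come from the left ventricle of male mice of the C57BL6 strain, with 4 Mst1-TG and 4 WT samples. Mst1-TG mice overexpress the Hippo pathway kinase Mst1 (mouse gene Stk4) under control of the alpha-MHC (alpha-myosin heavy chain) promoter, active in cardiomyocytes only, and carry experimental dilated cardiomyopathy, while WT mice are littermates without the transgene and serve as controls. The design text puts these samples at 3 weeks of age, the extraction protocol gives 3 months, and the growth protocol names both 3 weeks and an adult age of 5.5 months for the study, so the age is given here as 3 weeks from the design text alone. Nothing in the labels ties each sample to an animal of its own, and the p-values below cover only the spread among the 8 samples, part of which may be technical.

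F-box proteins are the part of an SCF complex (Skp1, cullin 1, F-box protein) that holds the substrate. Atrogin-1, the product of Fbxo32, and MuRF1, the product of Trim63, are the best-known ligases of wasting skeletal muscle, where FOXO transcription factors switch on their genes, and both also act on sarcomere and signalling proteins of the heart. UCHL1 is one of the most abundant proteins of neurons and is scarce in most other cells.

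The labels were checked on Stk4, which had 1563, 1747, 1449 and 1673 CPM (counts relative to library size, scaled with TMM factors) in Mst1-TG 1 to 4 and 27.8, 25.2, 26.3 and 29.6 CPM in WT 1 to 4. Libraries held 21435063 to 22355197 estimated counts in Mst1-TG and 21193536 to 23809256 in WT, with mitochondrially encoded genes at 12.9% to 14.4% of the counts in Mst1-TG and 21.4% to 23.8% in WT. TMM factors were 1.08 to 1.13 in Mst1-TG and 0.891 to 0.937 in WT. Scaling by library totals alone shifted the median gene by 0.29 on the log2 scale, to a log2 fold change of 0.29 against 0.01 with TMM, so that small differences below depend on the scaling. In bulk tissue, fewer cells of a type and less RNA per cell cannot be told apart.

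Of the 9 genes, 2 were higher in Mst1-TG (Uchl1 and Fbxo40), 2 were lower (Trim55 and Uchl3) and 5 did not pass (Fbxo32, Fbxo30, Trim63, Trim54 and Uchl5), at an adjusted p below 0.05 in edgeR's quasi-likelihood test over all genes tested. Over all genes tested 42.3% were called, 21.2% higher and 21.1% lower, so the share of the 9 genes called was near the background. With library totals as scaling, 6 were higher and 0 lower, beside 7409 higher and 1592 lower among all genes. The median log2 fold change (Mst1-TG over WT) of the 9 genes was 0.04, beside 0.01 for all genes tested. The CPM of the 4 Mst1-TG libraries did not overlap those of the 4 WT libraries in the same 4 genes, against 40.3% of all genes tested (20.2% higher and 20.1% lower). The difference for Uchl1 was of another size than the rest: it was 7.51-fold higher, while the other 8 genes had folds between 0.749 and 1.23.

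**Figure D1:**
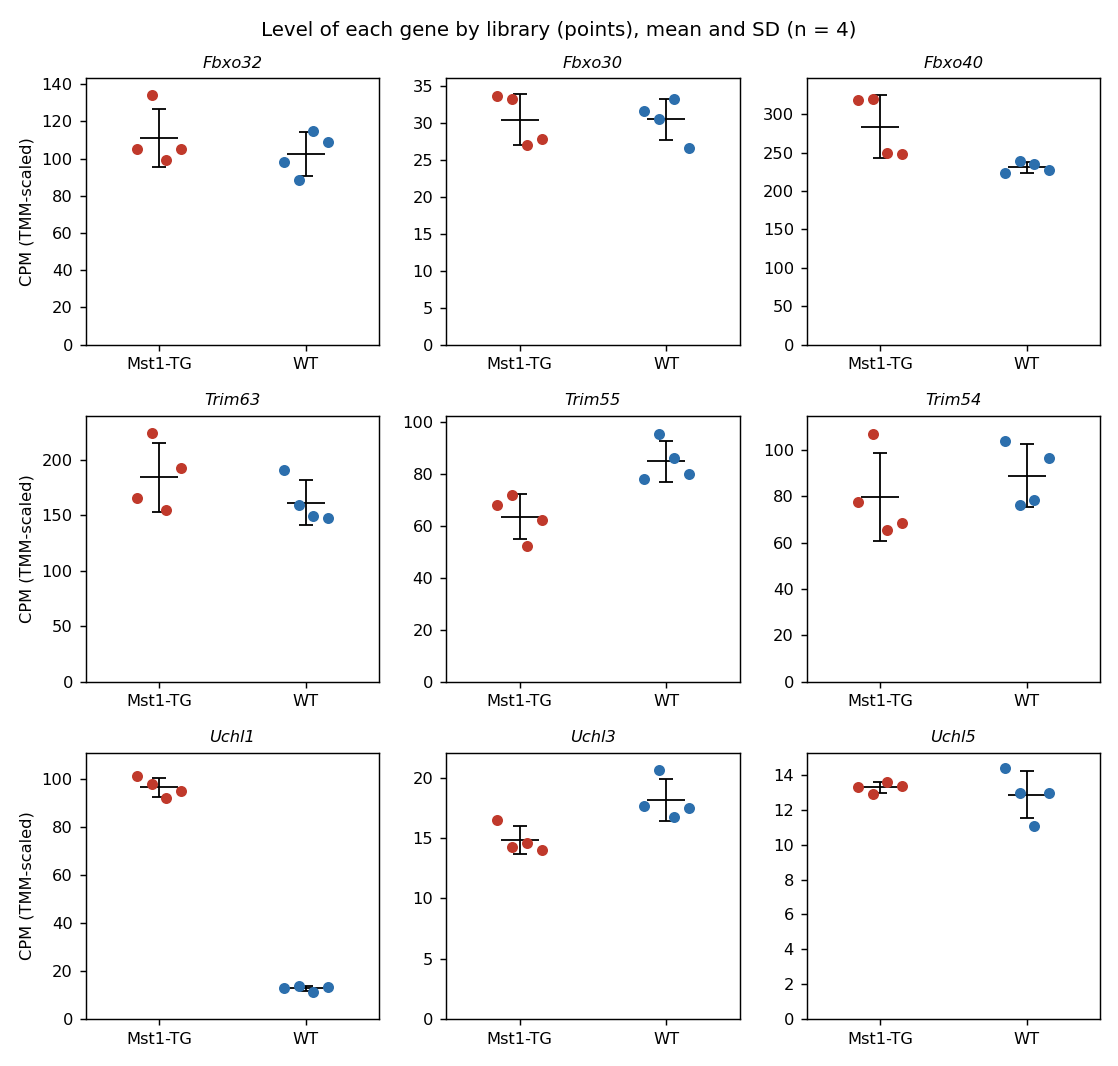
CPM of each of the 9 genes (vertical axes from 0) in the 4 Mst1-TG and 4 WT libraries, with points for libraries, a bar for the mean and whiskers for the SD. Uchl1 stands at 91.9 to 101 CPM in Mst1-TG and 11.3 to 13.6 CPM in WT. Fbxo40 lies higher, and Trim55 and Uchl3 lower, in Mst1-TG by margins small beside that, and the libraries of the other 5 genes overlap.

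Uchl1 (ENSMUSG00000029223.12, chromosome 5 from 66676091 to 66687234, forward strand, GENCODE M21 on GRCm38) encodes a deubiquitinase also known as PGP9.5. It had 101, 97.6, 91.9 and 94.9 CPM in Mst1-TG 1 to 4 and 13.0, 13.6, 11.3 and 13.4 CPM in WT 1 to 4. Every Mst1-TG library lay far above every WT library, and the libraries of each group lay close together. The means were 96.4 ± 3.90 CPM in Mst1-TG and 12.8 ± 1.04 CPM in WT (SD, n = 4 each), a log2 fold change of 2.91 ± 0.07 (SE; 95% interval 2.75 to 3.07; edgeR adjusted p = 4.3e-11). The values rest on 2255 to 2494 estimated counts per Mst1-TG library and 238 to 276 per WT library. Among the genes called higher, 95 had a log2 fold change at or above that of Uchl1, itself included. The rise stood at 2.85 to 2.94 when each library was left out in turn.

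Markers of cells that could carry Uchl1 were measured beside it. Of 10 neuronal markers 4 were tested, of which Tubb3 and Gap43 rose (log2 fold changes 1.02 and 0.98), Dbh fell by 2.27 and Stmn2 did not pass (0.35). By library totals Stmn2 passed as higher (0.63, adjusted p = 0.0467), which made 3 higher and 1 lower. The 10 neuronal markers together came to 15.2 to 21.4 CPM in Mst1-TG and 16.0 to 22.0 CPM in WT, ranges that overlap. Within that sum Dbh averaged 1.59 CPM in Mst1-TG and 7.68 CPM in WT, while Stmn2 averaged 10.7 CPM in Mst1-TG and 8.41 CPM in WT. Among the neuronal markers too low to test, Rbfox3, Elavl4 and Th had at most 0.216 CPM in any library, Prph at most 0.892 CPM and Snap25 at most 0.708 CPM. The 5 Schwann cell markers summed to 13.3 to 20.6 CPM in Mst1-TG and 12.8 to 15.8 CPM in WT, with Cdh19 higher and the other 3 tested markers not passing. All 5 fibroblast markers rose, also by library totals, and their sum was 2854 to 3818 CPM in Mst1-TG against 1186 to 1411 CPM in WT. Of 6 cardiomyocyte markers 3 fell and 3 did not pass (by library totals 2 higher and 1 lower, median -0.04), with sums of 24261 to 33211 CPM in Mst1-TG and 32067 to 39596 CPM in WT. The part of neuronal, Schwann cell, fibroblast and cardiomyocyte RNA in the result for Uchl1 was not tested.

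The genes whose profile was most like that of Uchl1 were Col8a1, Lmcd1 and Adamts20. Likeness was the root mean square difference over the 8 libraries in log2 CPM relative to the WT mean, searched over 11849 genes. It was 0.13 for Col8a1, a collagen VIII chain (log2 fold change 2.98 ± 0.09 SE), 0.19 for Lmcd1, a LIM-domain protein (2.75 ± 0.11), and 0.20 for Adamts20, a secreted metalloprotease (3.11 ± 0.22). Genes picked by likeness, here and below, have a log2 fold change near that of the member by the choice itself.

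Uchl3 (ENSMUSG00000022111.9, chromosome 14 from 101653967 to 101696125, forward strand), whose product cuts both ubiquitin and the ubiquitin-like protein NEDD8, moved slightly the other way. It had 16.5, 14.3, 14.6 and 14.0 CPM in Mst1-TG 1 to 4 and 17.7, 20.7, 16.8 and 17.5 CPM in WT 1 to 4. The groups did not overlap, but Mst1-TG 1 at 16.5 CPM lay just under WT 3 at 16.8 CPM. Uchl3 fell by 0.29 ± 0.09 on the log2 scale (SE; edgeR adjusted p = 0.0225). The call was lost without Mst1-TG 2 (adjusted p = 0.0508), without Mst1-TG 4 (0.065) or without WT 2 (0.077), and under scaling by totals alone (log2 fold change 0.00, adjusted p = 0.972). Uchl4, a mouse gene closely related to Uchl3 whose reads could be shared with it, had at most 2 counts in any library.

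Uchl5 (ENSMUSG00000018189.12, chromosome 1 from 143777272 to 143807466, forward strand) encodes UCH37, which works on the proteasome, bound to Adrm1, and in the INO80 chromatin remodelling complex. It had 13.3, 12.9, 13.6 and 13.4 CPM in Mst1-TG 1 to 4 and 14.4, 13.0, 11.1 and 13.0 CPM in WT 1 to 4. The Mst1-TG values lay within the range of the WT values. The log2 fold change was 0.04 (95% interval -0.16 to 0.25, edgeR adjusted p = 0.757). By library totals it was 0.33 and passed (adjusted p = 0.0112).

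Among the F-box ligases, only Fbxo40 passed in the fit with all libraries. Fbxo40 (ENSMUSG00000047746.14, chromosome 16 from 36963460 to 36990467, reverse strand) is a muscle-restricted gene whose product targets insulin receptor substrate 1. Its levels were 319, 320.2, 249 and 248 CPM in Mst1-TG 1 to 4 and 223, 239, 235 and 227 CPM in WT 1 to 4. Mst1-TG 1 and 2 were well above all other libraries, whereas Mst1-TG 3 and 4 lay only just above the highest WT library. The mean was 284 ± 41.0 CPM in Mst1-TG and 231 ± 7.0 CPM in WT (SD, n = 4 each), which gave a log2 fold change of 0.30 ± 0.09 (SE; edgeR adjusted p = 0.0189). The rise did not pass without Mst1-TG 1 (0.24, adjusted p = 0.0547), without Mst1-TG 2 (0.24, adjusted p = 0.0505) or without WT 1 (0.28, adjusted p = 0.0538). By library totals it was 0.58 (adjusted p = 0.00012).

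Fbxo32 (ENSMUSG00000022358.7, chromosome 15 from 58175879 to 58214932, reverse strand), the atrogin-1 gene, had 105, 134, 99.5 and 105 CPM in Mst1-TG 1 to 4. In WT 1 to 4 it had 98.0, 88.3, 115 and 109 CPM. Mst1-TG 2 was the highest library and the other Mst1-TG libraries lay inside the WT range. The log2 fold change was 0.11 ± 0.10 (SE; 95% interval -0.12 to 0.33; edgeR adjusted p = 0.431). Under scaling by totals alone it was 0.39 (adjusted p = 0.00665).

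Fbxo30 (ENSMUSG00000047648.13, chromosome 10 from 11281330 to 11298052, forward strand) encodes MUSA1, a ligase that BMP signalling holds down in skeletal muscle. It had 33.6, 33.2, 27.0 and 27.8 CPM in Mst1-TG 1 to 4 and 31.5, 30.5, 33.2 and 26.6 CPM in WT 1 to 4. The groups covered nearly the same range, with a log2 fold change of 0.00 (95% interval -0.20 to 0.20, edgeR adjusted p = 0.985). By library totals it was 0.28 and passed (adjusted p = 0.0141). The profiles most like that of Fbxo32 were those of Zdhhc14, Urb2 and Fbxl20, with root mean square differences of 0.075, 0.077 and 0.082 over the 8 libraries. None of the 3 passed the test, which follows largely from their choice by likeness.

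MuRF proteins bind the sarcomere and microtubules, and they form homo- and heterodimers. Trim55 (ENSMUSG00000060913.6, chromosome 3 from 19644474 to 19692421, forward strand), the MuRF2 gene, was the only member of the group that passed. It had 68.1, 71.7, 52.1 and 62.2 CPM in Mst1-TG 1 to 4 and 77.9, 95.4, 86.1 and 80.0 CPM in WT 1 to 4. All Mst1-TG libraries lay below all WT libraries. The means were 63.5 ± 8.54 CPM in Mst1-TG and 84.9 ± 7.85 CPM in WT (SD, n = 4 each), and Trim55 fell by 0.42 ± 0.10 on the log2 scale (SE; edgeR adjusted p = 0.00398). Left-out libraries kept the change between -0.48 and -0.33, each time past the threshold, but under scaling by totals alone it was -0.13 and did not pass (adjusted p = 0.217).

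Trim63 (ENSMUSG00000028834.13, chromosome 4 from 134315120 to 134329629, forward strand), the MuRF1 gene, had 165, 224, 155 and 192 CPM in Mst1-TG 1 to 4 and 190.2, 159, 149 and 147 CPM in WT 1 to 4. Mst1-TG 2 was highest, and WT 1 and WT 2 lay among the Mst1-TG libraries. The log2 fold change of 0.19 ± 0.12 did not pass (SE; 95% interval -0.07 to 0.45; edgeR adjusted p = 0.232). It passed with library totals only (0.47, adjusted p = 0.00249) and when genes of low count were kept in (0.19, adjusted p = 0.0481). That unfiltered edgeR fit also gave far smaller adjusted p for Uchl1 (5.7e-249) and Trim55 (6.8e-07), at nearly the same log2 fold changes. For Uchl3 (0.0295), Trim54 (0.514) and Uchl5 (0.814) the adjusted p was slightly larger than with the filter. The profiles most like that of Trim63 were those of Zfp28, Gse1 and Wdr91, with root mean square differences of 0.088, 0.089 and 0.095. None of these genes passed, which again follows largely from their choice by likeness.

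Trim54 (ENSMUSG00000062077.14, chromosome 5 from 31116712 to 31137630, forward strand), the MuRF3 gene, whose product stabilises microtubules, had 77.7, 107, 65.6 and 68.3 CPM in Mst1-TG 1 to 4. In WT 1 to 4 it had 104, 76.2, 78.5 and 96.5 CPM. Values were spread widely in both groups, and the highest library was Mst1-TG 2. The log2 fold change was -0.16 ± 0.17 (SE; 95% interval -0.53 to 0.22; edgeR adjusted p = 0.488). Without Mst1-TG 2 it was -0.33 and passed (adjusted p = 0.0379), and under scaling by totals alone it was 0.12 (adjusted p = 0.523). Mst1-TG 2 was thus the highest Mst1-TG library for Fbxo32, Trim63, Trim55, Trim54 and, just, for Fbxo40, and it also had the highest sum of the 6 cardiomyocyte markers in that group (33211 CPM), which was noticed after the values were seen. The part of this in the ligase values was not tested.

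Promoter sequences are shown for the RING ligases Trim63 and Trim54 and for Uchl1, to set a pair of muscle ligase genes that did not pass beside the hydrolase gene that rose most. Each is the 250 bases before the RefSeq start on GRCm38.p6, forward strand, 5′ to 3′, from chr4:134314870-134315119 for Trim63, chr5:31116362-31116611 for Trim54 and chr5:66675871-66676120 for Uchl1. Capitals mark matches, on either strand, to the FOXO element TGTTTAC, the TEAD element CATTCC (TEAD factors are the DNA-binding partners of YAP at the end of the Hippo pathway) and the TATA box letters TATAAA.
Trim63: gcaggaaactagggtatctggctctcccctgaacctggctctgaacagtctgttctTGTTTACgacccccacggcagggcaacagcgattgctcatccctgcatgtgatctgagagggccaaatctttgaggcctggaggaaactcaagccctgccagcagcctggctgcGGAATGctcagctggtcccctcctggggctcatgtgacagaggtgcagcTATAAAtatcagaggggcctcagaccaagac
Trim54: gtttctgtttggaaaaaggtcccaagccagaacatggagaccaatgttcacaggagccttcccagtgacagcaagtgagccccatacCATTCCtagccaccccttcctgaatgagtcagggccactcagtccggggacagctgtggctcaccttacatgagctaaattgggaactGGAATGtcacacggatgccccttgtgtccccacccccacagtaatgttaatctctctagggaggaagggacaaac
Uchl1: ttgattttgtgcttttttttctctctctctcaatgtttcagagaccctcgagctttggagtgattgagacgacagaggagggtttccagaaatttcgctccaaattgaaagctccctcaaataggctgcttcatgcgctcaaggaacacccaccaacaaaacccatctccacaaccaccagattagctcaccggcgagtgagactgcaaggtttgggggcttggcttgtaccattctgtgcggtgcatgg
In the Trim63 window the FOXO element begins at base -194 from the start, a TEAD element in reverse (GGAATG) at -80 and TATAAA at -31. The Trim54 window holds TEAD elements at -163 and, in reverse, at -75, and the Uchl1 window holds no match to these 3 motifs. Of 32851 promoter windows of 300 bases (250 before and 50 after the start) 3.65% hold the FOXO letters, 14.7% the TEAD letters and 13.6% TATAAA. In the 8 windows available for 7 of the 9 genes there was no other match to the 3 motifs. None held the only letter pattern searched for the MEF2 element, which 3.69% of all windows hold. Other forms of that element were not searched, so its absence from these windows was not shown. E-box letters CANNTG, present in 72.3% of all windows, were found for Trim63, Trim54, Fbxo40, Uchl3 and Uchl5 and not for Uchl1 or Fbxo30. A match is a description of the letters and was not tested as a binding site.

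Levels of different genes can be compared per transcript length, as CPM per kb of the median coding transcript. Trim63 was highest in both groups, at 98.3 ± 16.7 CPM per kb in Mst1-TG and 86.3 ± 10.6 CPM per kb in WT (SD, n = 4 each). Uchl1 was second in Mst1-TG, at 81.9 ± 3.31 CPM per kb, and seventh in WT, at 10.9 ± 0.886 CPM per kb. In Mst1-TG it was followed by Fbxo40 at 74.2 ± 10.7, Trim54 at 56.1 ± 13.4 and Trim55 at 24.5 ± 3.29 CPM per kb. The lower places in Mst1-TG were held by Uchl3 at 16.2 ± 1.25, Fbxo32 at 15.9 ± 2.21, Fbxo30 at 8.05 ± 0.920 and Uchl5 at 7.82 ± 0.177 CPM per kb.

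In WT the order after Trim63 was Trim54 at 62.5 ± 9.60, Fbxo40 at 60.3 ± 1.83, Trim55 at 32.7 ± 3.02 and Uchl3 at 19.8 ± 1.88 CPM per kb. Fbxo32 at 14.7 ± 1.71, Uchl1, Fbxo30 at 8.07 ± 0.741 and Uchl5 at 7.60 ± 0.792 CPM per kb closed the order. Libraries of neighbours in the order overlapped in Mst1-TG for Trim63 with Uchl1, Uchl1 with Fbxo40, Fbxo40 with Trim54, Uchl3 with Fbxo32 and Fbxo30 with Uchl5. In WT they overlapped only for Trim54 with Fbxo40 and Fbxo30 with Uchl5. Fbxo32, often named beside Trim63, was thus at a far lower level per length than Trim63 in both groups. Fbxo32 has 1 annotated coding transcript, of 6976 bases, so the choice of transcript could not vary its length. In CPM not divided by length, Fbxo32 averaged 111 in Mst1-TG and 103 in WT, and Trim63 184 in Mst1-TG and 161 in WT.

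**Figure D2:**
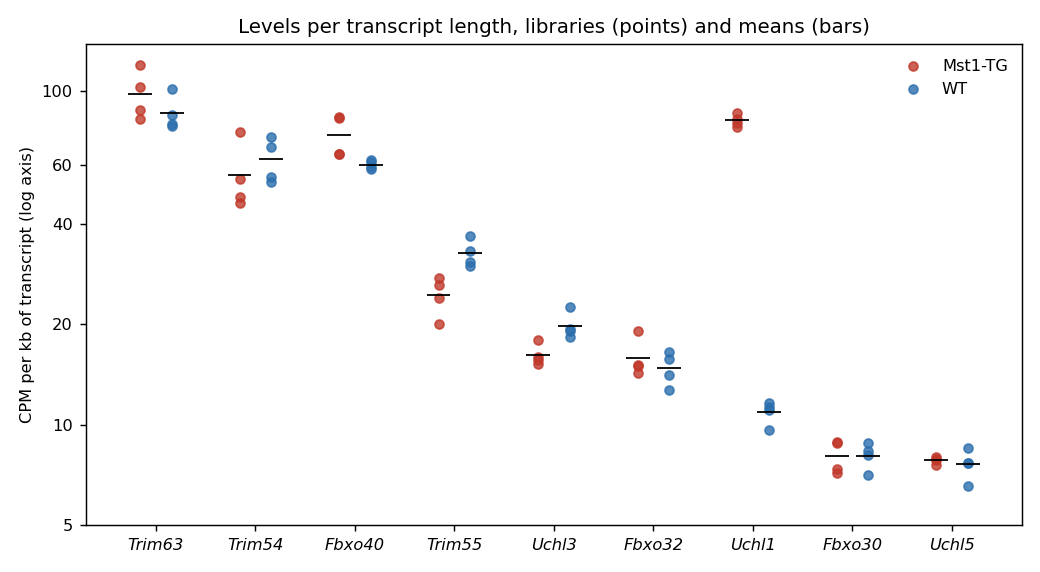
Level of each gene in CPM per kb of coding transcript (log axis) in Mst1-TG (red, left) and WT (blue, right) libraries, ordered by the WT mean, with points for libraries and bars for means. Uchl1 stands at 81.9 CPM per kb in Mst1-TG, among the highest of the 9, and at 10.9 CPM per kb in WT, among the lowest.

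**Figure D3:**
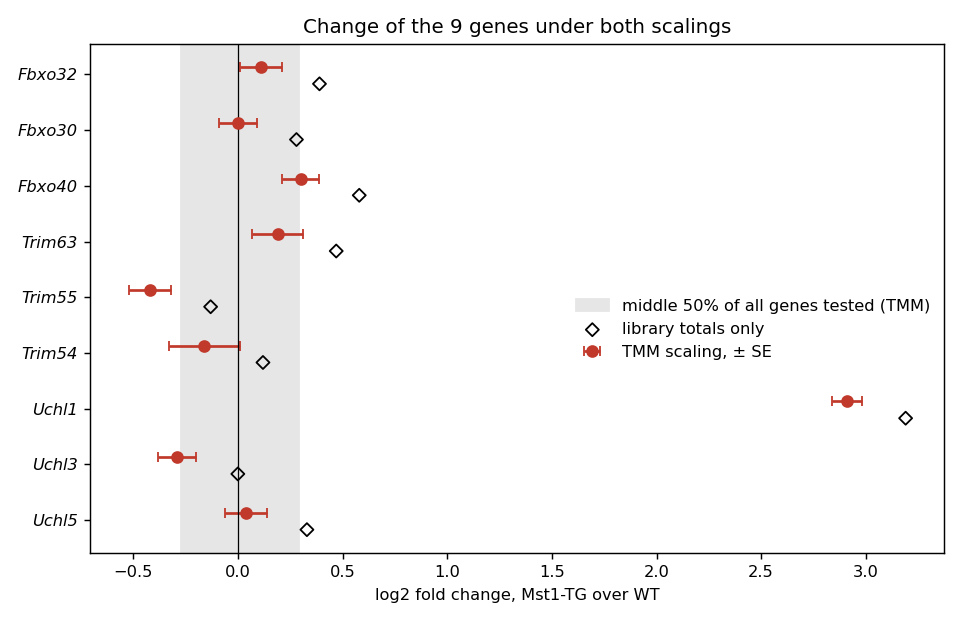
Log2 fold change (Mst1-TG over WT) of the 9 genes with TMM scaling (filled, whiskers are SE) and with library totals only (open diamonds), over a grey band for the middle 50% of all genes tested, from -0.27 to 0.29. Uchl1 lies far outside the band at 2.91, and library totals place every gene further right.

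A ratio of 2 genes within a library does not depend on how libraries are scaled. The log2 ratio was compared between groups for the 9 pairs within the 3 families by a two-sided exact permutation test, in which 4 against 4 cannot give a p below 0.0286. None of the 9 pairs passed after Benjamini-Hochberg adjustment over the 9 (adjusted p of 0.0643 at the lowest), although 4 pairs reached the smallest possible p and did not overlap between groups. With 4 pairs at that p, 0.0643 was the lowest adjusted p that could be reached. None of the 4 could thus have passed, however large its difference, and the adjusted outcome says nothing about their size. Uchl1 over Uchl3 had log2 ratios of 2.61, 2.77, 2.65 and 2.76 in Mst1-TG 1 to 4 and -0.44, -0.60, -0.57 and -0.39 in WT 1 to 4 (difference 3.20, exact permutation p = 0.0286). Uchl1 was thus the more counted of the pair in all Mst1-TG libraries and the less counted in all WT libraries. Uchl1 over Uchl5 averaged 2.86 ± 0.08 in Mst1-TG and 0.00 ± 0.10 in WT (SD, n = 4 each; exact permutation p = 0.0286).

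In the MuRF group, Trim63 over Trim55 was 1.27, 1.65, 1.57 and 1.63 in Mst1-TG 1 to 4 and 1.29, 0.74, 0.79 and 0.88 in WT 1 to 4. WT 1 lay just above Mst1-TG 1, and the difference of 0.60 had an exact permutation p of 0.0571 (adjusted p = 0.0857). Trim63 over Trim54 averaged 1.22 ± 0.20 in Mst1-TG and 0.87 ± 0.19 in WT, a difference of 0.35 in log2 ratio (SD, n = 4 each; exact permutation p = 0.0286). The groups did not overlap, but the lowest Mst1-TG and the highest WT library both rounded to 1.06. Trim55 over Trim54 overlapped widely (difference -0.25, exact permutation p = 0.257).

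Among the F-box genes, Fbxo30 over Fbxo40 averaged -3.22 ± 0.05 in Mst1-TG and -2.93 ± 0.13 in WT, lower in all 4 Mst1-TG libraries than in any WT library (SD, n = 4 each; exact permutation p = 0.0286). Fbxo32 over Fbxo40 differed by -0.18 (exact permutation p = 0.2) and Fbxo32 over Fbxo30 by 0.11 (exact permutation p = 0.457), both with overlapping libraries. Uchl3 over Uchl5 differed by -0.34 (exact permutation p = 0.0571).

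**Figure D4:**
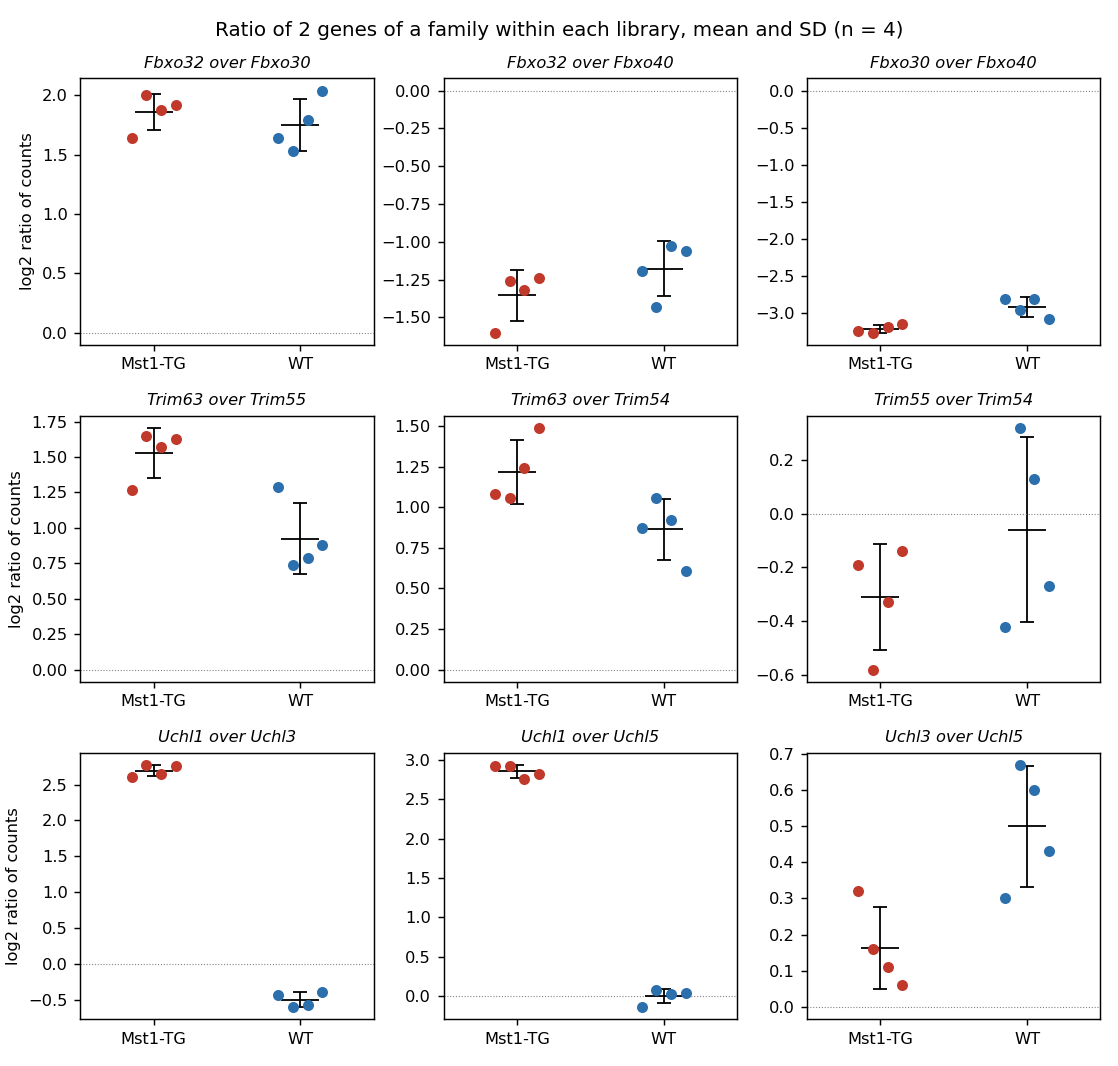
Log2 ratio of the counts of 2 genes of a family in each library for the 9 pairs, with points for libraries, a bar for the mean and whiskers for the SD. Groups are apart for Fbxo30 over Fbxo40, Trim63 over Trim54, Uchl1 over Uchl3 (2.61 to 2.77 in Mst1-TG, -0.60 to -0.39 in WT) and Uchl1 over Uchl5, and overlap in the other 5 pairs.

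The rest of the ubiquitin system was described with 7 lists, beside the 21.2% of all genes called higher and 21.1% called lower. Of 6 ubiquitin and E1 enzyme genes, 2 rose, 1 fell and 3 did not pass, with a median log2 fold change of 0.03 (by library totals 5 higher and 1 lower, median 0.32). The polyubiquitin gene Ubb rose (918 ± 60.9 CPM in Mst1-TG and 754 ± 45.3 CPM in WT; SD, n = 4 each; log2 fold change 0.28, edgeR adjusted p = 0.00902), as did the E1 enzyme gene Uba6 (0.26 on the log2 scale). The E1 enzyme gene Uba1 had a log2 fold change of 0.10 that did not pass. By library totals it was 0.39 and passed.

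Of 18 genes of E2 enzymes, which carry ubiquitin to the ligase, 3 rose, 4 fell and 11 did not pass (median -0.03; by library totals 11 higher and 1 lower, median 0.26). Ube2b fell by 0.61 and Ube2r2 by 0.34 on the log2 scale, the second not passing by library totals (-0.05), while Ube2c, a mitotic E2, rose by 1.03 and Ube2e2 by 0.83. Of 13 genes of the SCF core and of the NEDD8 system that activates it, 1 rose, 6 fell and 6 did not pass (median -0.17; by library totals 5 higher and 0 lower, median 0.11). The scaffold gene Cul1 (-0.12) and the adaptor gene Skp1a (-0.08) did not pass, the RING subunit genes Rbx1 and Rnf7 each fell by 0.25 and the NEDD8 E1 subunit gene Uba3 fell by 0.22, and none of these 3 passed by library totals (0.03, 0.04 and 0.06). Cand1, which exchanges F-box proteins on the cullin, rose by 0.25, and Skp1a passed as higher by library totals (0.20).

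Of 22 other ubiquitin ligases of striated muscle 5 rose, 11 fell and 6 did not pass (median log2 fold change -0.18; by library totals 10 higher and 7 lower, median 0.10). Fbxl22, an F-box gene of the cardiac Z-disc, was at 68.4 ± 12.6 CPM in Mst1-TG and 160.5 ± 11.8 CPM in WT (SD, n = 4 each; log2 fold change -1.23, edgeR adjusted p = 4.8e-06). Rnf207, a cardiac RING gene, fell by 1.04, Neurl2 by 0.78 and the mitochondrial ligase gene Mul1 by 0.60. Of 19 tested deubiquitinases and partners of the hydrolases, 4 rose, 2 fell and 13 did not pass (median 0.01; by library totals 14 higher and 1 lower, median 0.30). Otud1 stood out at 225 ± 60.7 CPM in Mst1-TG against 34.4 ± 2.65 CPM in WT (SD, n = 4 each; log2 fold change 2.71, edgeR adjusted p = 1.1e-06). Cyld rose by 0.64 and Usp28 by 0.49, while Usp2 fell by 1.16 and the proteasomal Usp14 by 0.26, which did not pass by library totals (0.02). The Uchl5 partner Adrm1 (-0.15), the proteasomal Psmd14 (0.06) and the UCH relative Bap1 (-0.13) did not pass, although Psmd14 did by library totals (0.34).

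Of 19 tested regulators of the muscle ligases, 3 rose, 8 fell and 8 did not pass (median -0.21; by library totals 8 higher and 3 lower, median 0.07). Of the FOXO genes, Foxo1 (0.11), Foxo3 (-0.22) and Foxo6 (-0.33) did not pass. Foxo4 was called lower (log2 fold change -0.23, edgeR adjusted p = 0.0342), with overlapping libraries. That change was smaller than the 0.29 by which library totals shifted the median gene. Klf15, a transcription factor that acts on both Fbxo32 and Trim63 in skeletal muscle, fell by 0.62 (by library totals -0.34, adjusted p = 0.0506). By library totals Foxo1 passed as higher (0.40, adjusted p = 0.00625). Akt2 and Akt1, kinases that keep FOXO factors out of the nucleus, fell by 0.70 and 0.40, the AMP kinase gene Prkaa2 by 0.48 and the coactivator gene Ppargc1a by 1.76, of which Akt1 did not pass by library totals (-0.12). Of 17 reported substrates and binding partners, 3 rose, 7 fell and 7 did not pass (median -0.17; by library totals 7 higher and 5 lower, median 0.11). Ckm, muscle creatine kinase and a substrate of MuRF1, fell by 1.55, Tnni3 by 1.33, Myl3 by 0.92 and Myl2 by 0.90 on the log2 scale. The highest of this list was Myh7, the beta myosin heavy chain gene, named after its value was seen, at 647 ± 242 CPM in Mst1-TG and 57.2 ± 18.1 CPM in WT (SD, n = 4 each; log2 fold change 3.50, edgeR adjusted p = 0.0004). Of 8 skeletal muscle markers none reached the filter, and their sum was 0.585 to 0.851 CPM in Mst1-TG and 0.252 to 0.856 CPM in WT, with Pax7 and Myh4 at 0 in every library.

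**Figure D5:**
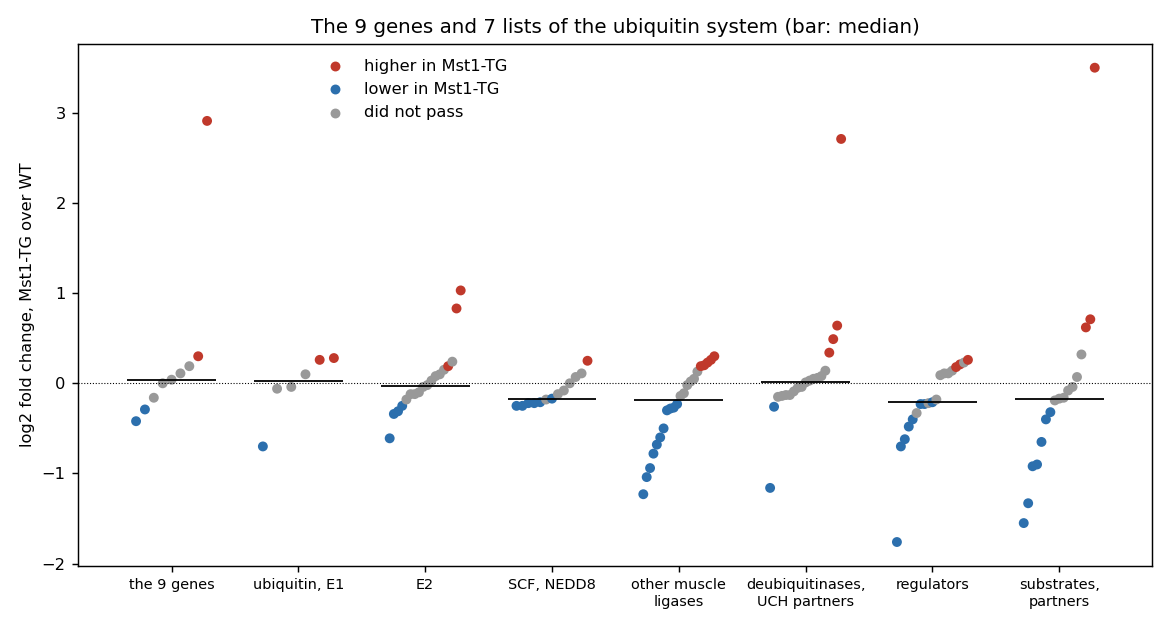
Log2 fold change (Mst1-TG over WT) of the 9 genes and of the tested genes of the 7 lists, 1 point a gene, red where higher, blue where lower and grey where the edgeR test did not pass, with a bar at each median. Uchl1 at 2.91 and Otud1 at 2.71 stand above their lists, Myh7 at 3.50 is the highest point, and the other muscle ligases reach down to -1.23.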

How the data were processed

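Per the labels' protocols, 200 ng of total RNA from left ventricle was depleted of ribosomal RNA and made into directional libraries. The submitters' processing notes name bcl2fastq 2.19.1.403, for read files, and kallisto 0.46.0, a pseudoaligner. The authors deposited 1 table of estimated counts per gene, whole numbers not scaled for depth; no label or header names the genome build, annotation or strand setting. Of 55385 gene identifiers, 54487 match GENCODE M21 (GRCm38), which gave positions and transcript lengths. Promoter sequences are RefSeq's on GRCm38.p6.

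Counts were rounded, which changed nothing, filtered with filterByExpr (minimum count 10, minimum total count 15), scaled by TMM and tested with edgeR 4.0.16 in R 4.3.3 (robust quasi-likelihood fit, group only), with Benjamini-Hochberg adjustment over all 15314 genes tested and a threshold of 0.05. Intervals of a log2 fold change are the estimate ± the SE times the t quantile of the fit. Family ratios used a pseudocount of 0.5 counts and exact permutation tests (scipy 1.17.1). DESeq2 1.42.0 and limma 3.58.1 served as alternatives.

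No libraries of 1 group agreed within sampling noise (a chi-square over genes gave 7.76 to 23.6 per degree of freedom), so none was treated as a repeat run of another. This check cannot tell samples of 1 animal from samples of different animals. Each library was counted as a sample. The biological coefficient of variation was 11.4%. The 9 genes and the lists were chosen with earlier results of these data known. Other genes named are the 4 of each list with the smallest p, fixed partners, genes that overlap a member, and the 3 profiles nearest to Fbxo32, Trim63 and Uchl1 among genes with a mean log2 CPM of at least 1, on log2(CPM + 0.1). Cell type markers are named where a result touches them. Myh7, Foxo4 and Foxo6 were named after their values were seen. Some genes of the lists are not reported here by name.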

Additional observations from a re-analysis of the deposited data

Results flagged for a closer look

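Fbxo32 in Mst1-TG 2, at 134 CPM, lay apart from the other 3 Mst1-TG libraries at 99.5 to 105 CPM: its gap to the nearest of them was 0.833 of the range of the group, above the 95% critical value of Dixon's test for 4 samples. Chance gives about 1 such case in 20 groups, and 36 groups were looked at.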

How the results depend on the processing

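The rise of Uchl1 passed under every alternative tried. With library totals only, 6 of the 9 genes were called higher and 0 lower, and over all genes 7409 higher and 1592 lower, 82.3% of the calls, against 3244 higher and 3238 lower with TMM. Under that scaling Fbxo32 (0.39), Trim63 (0.47) and Uchl5 (0.33) passed as higher, and Fbxo30 turned to 0.28 and passed. Fbxo40 stood at 0.58 and Uchl1 at 3.19. Trim54 turned to 0.12, and Trim55 (-0.13) and Uchl3 (0.00) did not pass. Library totals include the mitochondrially encoded counts, whose share differed between the groups. The part of that share in the shift was not tested. Without a filter on low counts Trim63 passed narrowly (0.19, edgeR adjusted p = 0.0481) and Fbxo30 stayed at 0.00. Leaving out each library in turn gave ranges of 0.01 to 0.17 for Fbxo32, -0.06 to 0.05 for Fbxo30, 0.24 to 0.36 for Fbxo40, 0.08 to 0.27 for Trim63, -0.48 to -0.33 for Trim55, -0.33 to -0.07 for Trim54, 2.85 to 2.94 for Uchl1, -0.35 to -0.22 for Uchl3 and -0.03 to 0.10 for Uchl5, with 1 to 2 genes called higher and 1 to 2 lower, and 2799 to 3136 higher and 2888 to 3208 lower over all genes. With the longest coding transcript the levels per kb were 6.01 in Mst1-TG and 6.02 in WT for Fbxo30, 55.3 in Mst1-TG and 44.9 in WT for Fbxo40, and 7.19 in Mst1-TG for Uchl5. With that length Uchl5, at 6.99 in WT, stood above Fbxo30 in both groups. Trim54, at 55.6 in Mst1-TG, then stood just above Fbxo40 in that group.

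The labels state no pairing of samples by replicate number. Deviations of same-numbered libraries from their group means correlated at -0.128 to 0.0726. Differently numbered libraries were not compared, so these values cannot exclude a pairing. With the replicate number as a block 2 of the 9 genes were called higher and 2 lower, with 3064 higher and 3123 lower over all genes, and no call among the 9 changed. DESeq2, limma-voom, DESeq2 size factors and leaving out mitochondrial and the 20 most abundant genes also gave 2 higher and 2 lower. Without a library, 3 against 4 cannot give a permutation p below 0.0571, so for family ratios only the values were recomputed, and their 9 differences kept their sign. Over all genes tested the median SE of a log2 fold change was 0.111, so differences of the size seen in Fbxo32 lie within the error.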

Other observations

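Annotated genes overlap 5 of the 9 genes. The antisense gene Uchl1os, whose span reaches an exon of Uchl1, had 0 counts in all 8 libraries. Gm15943, antisense to Fbxo32, had 0.699 ± 0.215 CPM in Mst1-TG and 0.800 ± 0.427 CPM in WT and did not pass (SD, n = 4 each), and Gm15469, antisense to Trim54, had 1 to 13 counts per library and was not tested. Gm29170, which lies in an intron of Uchl5 on the same strand, had 1.46, 2.76, 1.67 and 1.97 CPM in Mst1-TG 1 to 4 and 3.45, 4.70, 4.0 and 2.97 CPM in WT 1 to 4. Its libraries did not overlap between groups and it fell by 0.94 ± 0.23 on the log2 scale (SE; edgeR adjusted p = 0.00439), while Uchl5 itself did not pass; the difference between the pair was not tested. BC002189, inside an intron of Trim55 on the same strand, had a log2 fold change of -1.37 ± 0.53 that did not pass (SE; edgeR adjusted p = 0.0547).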
